A study of Mus musculus with 169 samples.

Results

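The genes described here are 10 mouse genes of iron handling and of the antioxidant response that the transcription factor NRF2 (gene Nfe2l2) drives. They are Hmox1, Fth1, Ftl1, Slc40a1, Slc7a11, Gclc, Gclm, Txnrd1, Srxn1 and Nqo1, followed in microglia of mice with and without progranulin, the secreted and lysosomal protein that Grn encodes. Every array probe whose accession maps to any of the 10 genes was used, which gave 11 of the 55681 probes of the array, 2 for Hmox1 and 1 for each other gene. All 11 were above background on enough arrays to be tested, together with 45637 probes in all.

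The microglia came from Grn-/- mice (KO) and Grn+/+ mice (WT) on a C57B/6J background. Brain cells were enriched on a Percoll gradient and sorted by CD11b, CD45 and Ly6G, and each RNA was hybridized to a 1-color array (Agilent). There were 4 KO and 4 WT arrays at 16 months, and 3 KO and 4 WT arrays at 4 months. The WT arrays of 16 months matched in pairs, 1 with 2 and 3 with 4, by less than repeat spots of 1 probe differ, and counted as 2 replicates. The labels give neither the sex of the mice nor whether an array held cells of 1 mouse or of several, so p-values measure the spread between arrays.

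Ferritin, a shell built of heavy chains (Fth1) and light chains (Ftl1), stores iron, ferroportin (Slc40a1) exports it from the cell, and heme oxygenase 1 (Hmox1) frees it from heme. NRF2 is bound by KEAP1 (Keap1) and degraded until oxidants or electrophiles release it, and it then pairs with a small MAF protein on antioxidant response elements, which BACH1 (Bach1) can occupy as a repressor. Its known targets include genes for making glutathione (Slc7a11, Gclc, Gclm), for restoring oxidized thiols (Txnrd1, Srxn1) and for reducing quinones (Nqo1), and also Hmox1 and both ferritin chains.

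The sequences below are the 250 bases before the start of 3 of the genes, in RefSeq's annotation of GRCm38.p6. Nqo1 is shown because it was the member that passed the test, Srxn1 because its window holds the most element letters, and Gclm because its direction depended on which WT replicate was used. Capitals mark the core letters of the antioxidant response element, TGANNNNGC, on either strand. The windows are chr8:107403206-107403455 on the minus strand for Nqo1, chr2:152105274-152105523 on the plus strand for Srxn1 and chr3:122245307-122245556 on the plus strand for Gclm.
Nqo1: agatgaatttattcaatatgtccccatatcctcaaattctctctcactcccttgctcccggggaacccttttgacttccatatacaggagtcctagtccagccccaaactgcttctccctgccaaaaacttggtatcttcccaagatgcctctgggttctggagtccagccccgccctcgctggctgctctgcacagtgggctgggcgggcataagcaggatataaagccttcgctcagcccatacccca
Srxn1: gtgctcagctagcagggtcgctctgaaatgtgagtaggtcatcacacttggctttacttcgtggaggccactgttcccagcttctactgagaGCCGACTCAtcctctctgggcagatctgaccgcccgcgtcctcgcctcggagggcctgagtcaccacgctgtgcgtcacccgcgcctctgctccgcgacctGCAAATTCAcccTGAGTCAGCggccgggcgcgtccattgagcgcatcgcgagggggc
Gclm: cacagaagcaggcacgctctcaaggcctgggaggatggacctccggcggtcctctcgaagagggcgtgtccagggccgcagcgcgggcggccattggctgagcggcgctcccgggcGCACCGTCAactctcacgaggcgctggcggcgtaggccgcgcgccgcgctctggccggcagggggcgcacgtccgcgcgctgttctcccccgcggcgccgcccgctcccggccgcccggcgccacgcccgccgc

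RefSeq's table held windows for 7 of the 10 genes, 10 windows in all, and windows of 4 genes had at least 1 TGANNNNGC match. This motif occurs in 35.2% of all 32851 windows of the same length, so a match in a window is common. That share is by window and the count above is by gene, and a gene can have several windows, so they are not compared. Srxn1 had 3 matches, with their leftmost bases at -158, -57 and -45 from the start. The match at -45 overlaps the letters TGAGTCA, an AP-1 type motif (TGANTCA, found in 6.75% of all windows), which also occur in Srxn1 at -102. Slc7a11 had matches at -97 and -45, Gclm at -134, and Txnrd1 at -92 and -84 of 2 of its 3 windows. No match lay in these windows of Nqo1, Fth1 or Ftl1, which says only that the letters are not in them.

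Levels are given as the log2 of the signal over the 75th percentile of the array, so 0 is that percentile, and levels of different probes are not compared with each other. That percentile was 507 to 1037 on KO and 1010 to 1511 on WT arrays of 16 months, and 1072 to 1752 on KO and 1306 to 1649 on WT arrays of 4 months. Probes well above background were 54.3 to 62.7% on KO and 64.7 to 69.8% on WT arrays of 16 months. Grn itself was not above background on any of the 4 KO arrays of 16 months, against a level of 5.04 ± 0.60 in WT (SD, n = 2), which made it at least 1010-fold lower (limma adjusted p = 6.49e-07). At 4 months its level was -2.77 ± 0.66 in KO (SD, n = 3) and 6.25 ± 0.09 in WT (SD, n = 4), a difference of -9.03 (SE 0.282, limma adjusted p = 5.01e-07). Each age lay on its own slide and the genotypes in different positions of a slide, and neither age and slide nor genotype and position can be told apart.

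Markers of the sorted cells and of other cells differed between the groups at 16 months. Each marker was counted by its probe of highest mean. Counted so, 20.5% of all named genes were higher and 14% lower in KO. All 8 microglia markers were above background on at least 1 array of every group. Of the 8, 6 fell in KO and 0 rose, and the 8 summed to 188 to 492 times the 75th percentile in KO replicates, against 849 to 1390 in WT replicates. Fewer microglia and less of these RNAs per cell cannot be told apart in such samples. Of 7 choroid plexus markers 3 rose, and they summed to 850 to 1470 in KO and 324 to 515 in WT. Of 4 red blood cell markers tested 2 rose, with the list of 5 at 1.24 to 35.1 in KO and 0.335 to 0.428 in WT. Of 7 border macrophage markers 0 passed the test in limma (1 at an unadjusted p under 0.05), with sums of 23.2 to 85 in KO and 45.8 to 88.3 in WT, and Cd163 was not above background on any KO array. At 4 months 0 markers of these 4 lists passed in limma, although all 7 choroid plexus and 2 border macrophage markers had an unadjusted p under 0.05 with higher values in KO (choroid plexus sums of 173 to 279 in KO, 10.7 to 124 in WT). The part that these cells had in the results below was not tested.

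**Figure D1:**
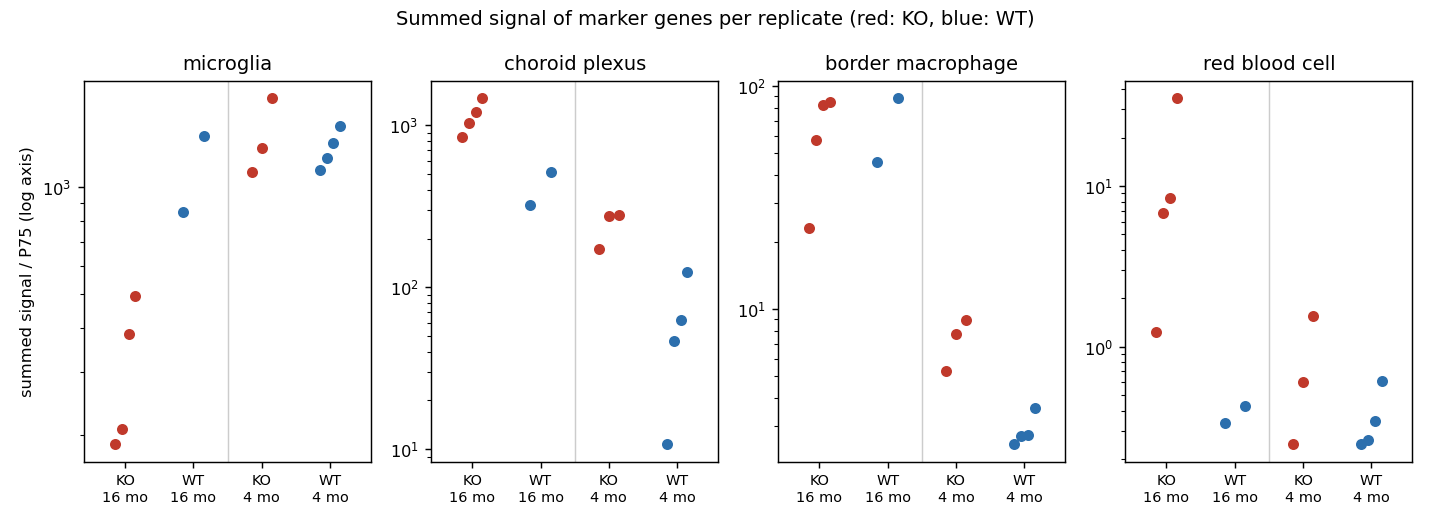
Summed signal of 4 marker lists per replicate, in multiples of the 75th percentile of the array (log axis), for KO (red) and WT (blue) microglia of 16 and 4 months. Microglia markers sum to 188 to 492 in the 4 KO replicates of 16 months, below all other replicates, and choroid plexus markers to 850 to 1470, above all others.

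In KO microglia of 16 months, 1 of the 11 probes passed the test, against 30.2% of all probes, and 17.4% of all probes in the higher direction. The probe was that of Nqo1, a cytosolic quinone reductase, which rose 16.1-fold. None of the 11 was lower in limma at an adjusted p under 0.05, while 4 of the 11, Nqo1 included, had an unadjusted p under 0.05, as did 41.1% of all probes. The KO and WT replicates did not overlap for 4 probes, those of Nqo1, Fth1, Ftl1 and Slc40a1, where 39.1% of all probes did not overlap. The median difference of the 11, KO minus WT, was 0.79, beside 0.10 over all probes, and 8 of 11 were positive. Over the 22578 probes above background on all 15 arrays the median was 0.53, and 6624 of them passed as higher. All member probes but those of Slc7a11 and Nqo1 are among these brighter probes.

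**Figure D2:**
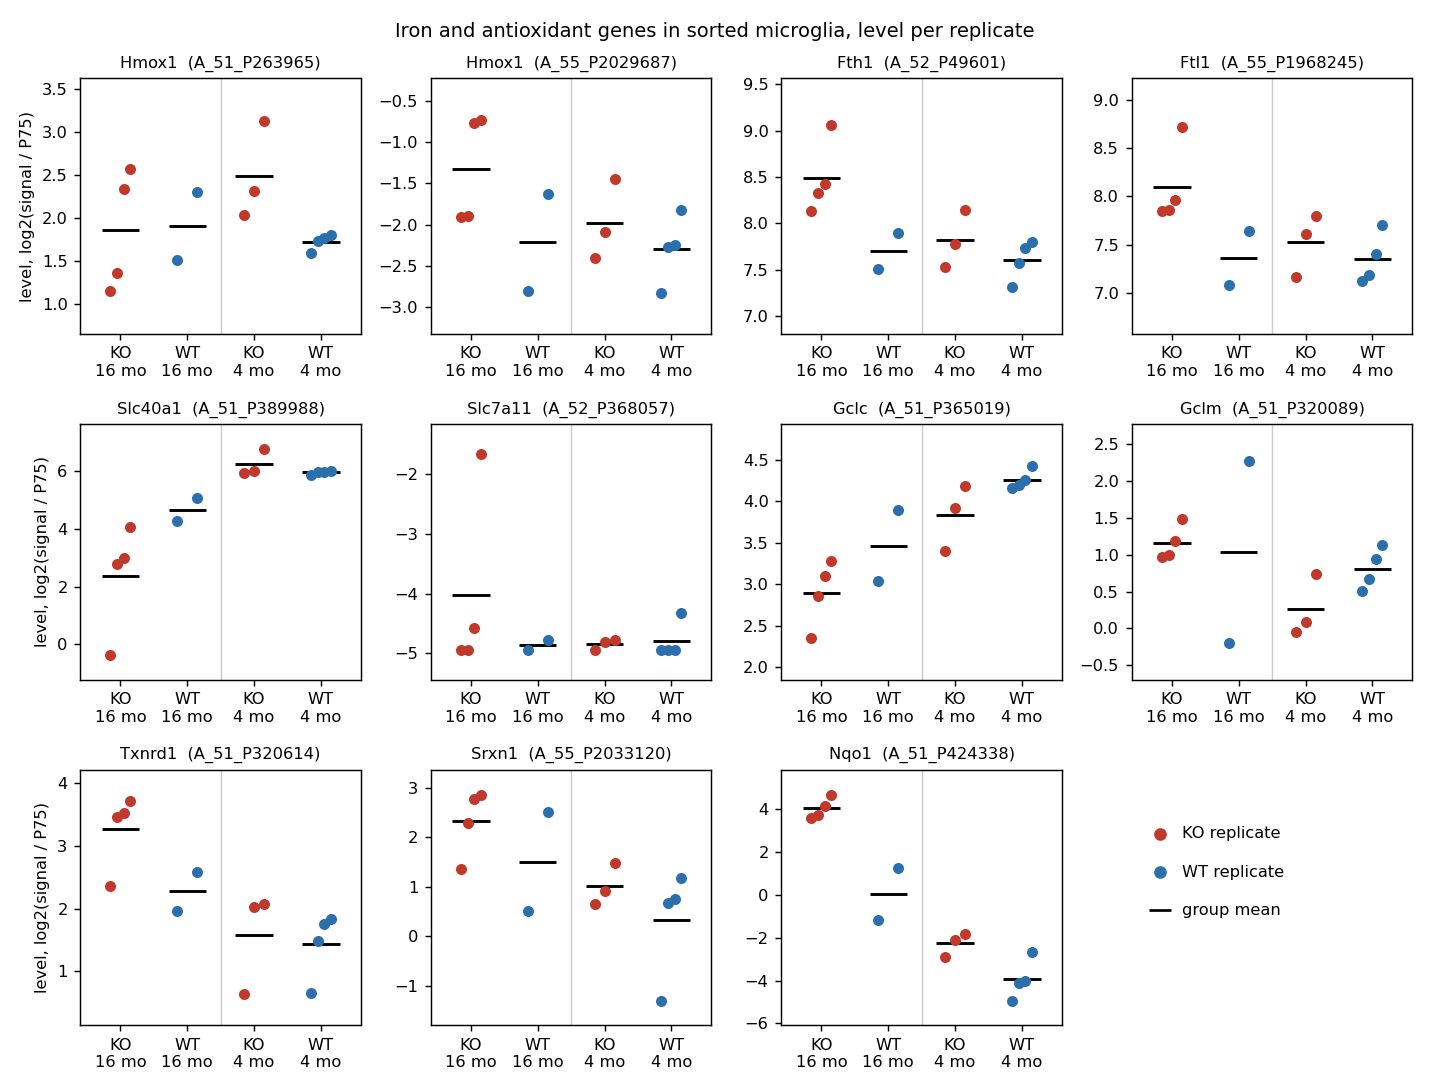
Level of each probe, as log2 of the signal over the 75th percentile of the array, in every replicate of KO (red) and WT (blue) microglia of 16 and 4 months, with lines at the group means. Nqo1 separates the genotypes at 16 months, with 4 KO replicates between 3.58 and 4.68 and 2 WT replicates at 1.25 and -1.18, while most other probes overlap.

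Hmox1 cleaves heme into iron, carbon monoxide and biliverdin. On probe A_51_P263965 its level at 16 months was 1.16, 2.34, 2.57 and 1.37 in the KO replicates, against 1.51 and 2.31 in the WT replicates. KO replicates 2 and 3 were above both WT replicates and 1 and 4 below both, and the difference was -0.05 (SE 0.437, limma adjusted p = 0.995, 95% interval -1.02 to 0.92). On the second and dimmer probe, A_55_P2029687, the level was -0.72, -1.91, -0.77 and -1.89 in KO, against -2.81 and -1.63 in WT. KO replicates 1 and 3 were above both WT replicates there, and replicates 2 and 4 lay between them. The difference on that probe was 0.90 (SE 0.481, limma adjusted p = 0.191, 95% interval -0.17 to 1.96). Both probes carry the same accession. Where each gene is counted by its brightest probe, A_51_P263965 stands for Hmox1.

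Relative to the 75th percentile of the array, the ferritin chains lay above WT in every KO replicate of 16 months without passing the test. Fth1, whose heavy chain oxidizes iron for storage, had levels of 8.43, 9.06, 8.33 and 8.14 in KO, against 7.51 and 7.90 in WT. All 4 KO replicates were above both WT replicates, a difference of 0.79 or 1.72-fold (SE 0.276, limma adjusted p = 0.0543, 95% interval 0.17 to 1.397). Without KO replicate 4 the difference was 0.90 and passed (adjusted p = 0.0333), and over the alternatives it ranged between 0.20 (quantile normalization) and 0.98. Ftl1, whose light chain helps build the iron core, had levels of 7.86, 8.72, 7.96 and 7.85 in KO, against 7.08 and 7.64 in WT. KO replicate 2 was the highest for both chains, and the difference for Ftl1 was 0.74 or 1.67-fold (SE 0.302, limma adjusted p = 0.0915, 95% interval 0.07 to 1.41). For Ftl1 it was 0.16 with quantile normalization (limma adjusted p = 0.665) and 0.46 without WT replicate 1+2 (limma adjusted p = 0.47). The signals of Ftl1 before division by the percentile overlapped, at 185000 to 240000 on KO arrays and 183000 to 234000 on WT arrays, as did those of Fth1, at 271000 to 292000 on KO arrays and 243000 to 280000 on WT arrays. The annotation lists 2 pseudogene symbols for Fth1 and 3 pseudogene or copy symbols for Ftl1, and binding of their RNA to these probes was not tested.

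Ferroportin (Slc40a1) is the known iron exporter of mammalian cells. Its level at 16 months was -0.37, 2.79, 2.98 and 4.05 in the KO replicates, against 4.27 and 5.06 in the WT replicates. All 4 KO replicates were below both WT replicates, with KO replicate 1 far below the other 3 and replicate 4 close to WT. The difference was -2.30 (SE 0.924, limma adjusted p = 0.0859, 95% interval -4.35 to -0.25) and did not pass. Without KO replicate 1, the difference was smaller in size at -1.39 but passed (limma adjusted p = 0.0313), and without KO replicate 4 it was -2.87 (limma adjusted p = 0.0277). Quantile normalization gave -2.70 (limma adjusted p = 0.0337), normexp background correction gave -2.33 (limma adjusted p = 0.047), and testing only the probes above background on all 15 arrays gave -2.30 (limma adjusted p = 0.0423). In the other 9 alternatives it did not pass, with limma adjusted p between 0.0578 and 0.324 and the highest without WT replicate 3+4 (-1.91). In KO replicates 1 to 4 the microglia markers summed to 188, 208, 385 and 492 and the border macrophage markers to 23.2, 57.2, 82.1 and 85. KO replicate 2 had a microglia sum close to that of replicate 1 and a level of Slc40a1 close to that of replicate 3. The part of these cells in the level of Slc40a1 was not tested.

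Slc7a11, Gclc and Gclm, which import cystine for glutathione or catalyze the first step of its synthesis, showed no difference that passed the test at 16 months. Slc7a11, the cystine-importing subunit of the cystine and glutamate exchanger, was close to background in all groups. It was above background on 2 of 4 KO and 2 of 4 WT arrays, with levels of -4.94, -4.94, -4.58 and -1.66 in KO, against -4.94 and -4.78 in WT. The value -4.94 is the common floor to which every lower signal was raised, whether above background or not. Only KO replicate 4 stood clear of it (difference 0.83, SE 0.764, limma adjusted p = 0.469). Gclc, the catalytic subunit of glutamate-cysteine ligase, had levels of 3.10, 2.35, 2.86 and 3.28 in KO, against 3.04 and 3.89 in WT. Its groups overlapped at a difference of -0.57 (SE 0.316, limma adjusted p = 0.205, 95% interval -1.27 to 0.13).

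Gclm, the modifier subunit of the same ligase, had levels of 1.48, 0.97, 1.00 and 1.19 in KO, against 2.28 and -0.20 in WT. The 4 KO replicates lay close together between 2 WT replicates that were far apart, and the difference was 0.12 (SE 0.536, limma adjusted p = 0.938). With WT replicate 1+2 left out, it was 1.35 (limma adjusted p = 0.022), and with WT replicate 3+4 left out, it was -1.12 (limma adjusted p = 0.042). Either WT replicate alone would therefore have given a call, in opposite directions.

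The thioredoxin-linked genes had higher means in KO with overlapping replicates. Txnrd1, the cytosolic thioredoxin reductase, had levels of 3.52, 2.36, 3.70 and 3.45 in KO, against 1.96 and 2.58 in WT. Replicates 1, 3 and 4 of KO were above both WT replicates and replicate 2 lay between them, a difference of 0.99 (SE 0.514, limma adjusted p = 0.177, 95% interval -0.15 to 2.13). Srxn1, sulfiredoxin, which repairs overoxidized peroxiredoxins and whose window holds 3 of the element letters shown above, had levels of 2.29, 2.86, 2.78 and 1.37 in KO, against 2.51 and 0.51 in WT. KO replicates 2 and 3 were above both WT replicates and 1 and 4 lay between them, and the difference was 0.81 (SE 0.742, limma adjusted p = 0.462, 95% interval -0.83 to 2.46). Without WT replicate 3+4 the sign for Srxn1 turned to -0.19.

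Nqo1 reduces quinones with electrons from NADH or NADPH. Its level at 16 months was 4.68, 4.17, 3.58 and 3.75 in the KO replicates, against 1.25 and -1.18 in the WT replicates. Every KO replicate was above both WT replicates, and the 2 WT replicates lay further apart than the 4 KO replicates did. The rise was 4.01 (SE 0.717, limma adjusted p = 0.00254, 95% interval 2.42 to 5.60). It was 5.23 without WT replicate 1+2 and 2.80 without WT replicate 3+4 (limma adjusted p = 0.00176 and 0.0244), so the size of the rise rests on which WT replicate is used. Over 13 alternatives that kept the probe, the adjusted p in limma ran between 0.000678 and 0.0471, the highest when only 16-month arrays entered the model. The choroid plexus markers summed to 1210, 1470, 1030 and 850 in the same KO replicates, against 515 and 324 in WT. They were thus also highest in KO and higher in WT replicate 1+2 than in 3+4. Within KO the order differed: Nqo1 was highest in replicate 1 and lowest in 3, the markers highest in replicate 2 and lowest in 4. The part of these cells in the rise of Nqo1 was not tested.

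**Figure D3:**
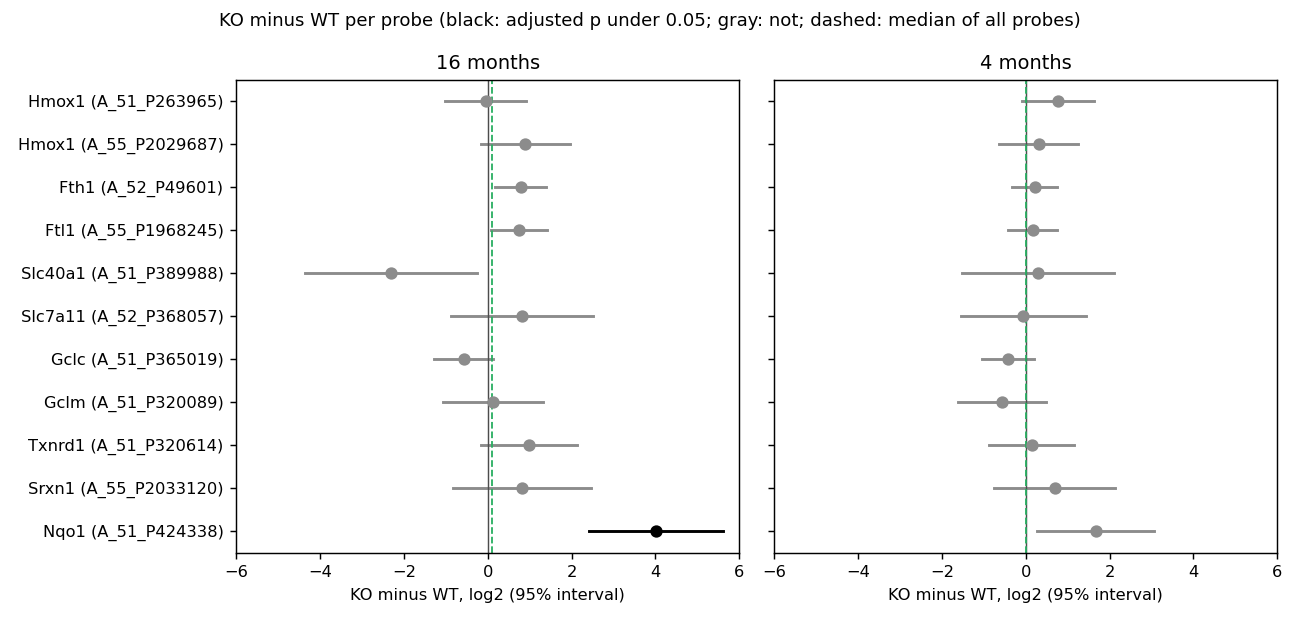
Difference of each probe, KO minus WT on the log2 scale, with its 95% interval, at 16 months (left) and 4 months (right). Black marks an adjusted p under 0.05, which Nqo1 alone reached, at 16 months (4.01, interval 2.42 to 5.60); the dashed line is the median of all probes, 0.10 at 16 months and 0 at 4 months.

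At 4 months 0 of the 11 probes passed in limma, where 0.0219% of all probes did (10 of 45637). Nqo1 was the member with an unadjusted p under 0.05, which 6.06% of all probes had. Its level was -1.80, -2.90 and -2.10 in KO, against -4.002, -2.68, -4.12 and -4.94 in WT. KO replicates 1 and 3 were above all WT replicates, KO replicate 2 was below WT replicate 2, and WT replicate 4 was not above background. The difference was 1.67 (SE 0.633, limma adjusted p = 0.715, 95% interval 0.26 to 3.07).

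Replicates did not overlap at 4 months for 1 of the 11 probes, where 10.7% of all probes did not overlap. On probe A_51_P263965 the level of Hmox1 was 2.04, 3.13 and 2.32 in KO, against 1.81, 1.73, 1.77 and 1.59 in WT. All 3 KO replicates were above the 4 tightly grouped WT replicates, with a difference of 0.77 (SE 0.385, limma adjusted p = 0.884, 95% interval -0.09 to 1.62). The second Hmox1 probe overlapped, with a difference of 0.31 (SE 0.424, limma adjusted p = 1).

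The other members differed less at 4 months, and the groups of each overlapped. Fth1 averaged 7.82 ± 0.31 in KO (SD, n = 3) and 7.61 ± 0.22 in WT (SD, n = 4), and Ftl1 averaged 7.53 ± 0.32 in KO and 7.36 ± 0.26 in WT. Slc40a1, the exporter, averaged 6.24 ± 0.46 in KO and 5.95 ± 0.07 in WT, with a difference of 0.29 (SE 0.814, limma adjusted p = 1), opposite in sign to that at 16 months. The ligase subunits had negative differences, -0.43 for Gclc (SE 0.278, limma adjusted p = 0.97) and -0.55 for Gclm (SE 0.473, limma adjusted p = 1). Txnrd1 averaged 1.57 ± 0.81 in KO and 1.43 ± 0.54 in WT, and Srxn1 averaged 1.01 ± 0.43 in KO and 0.32 ± 1.10 in WT. Slc7a11 was above background on 2 of 3 KO and 1 of 4 WT arrays. The median difference of the 11 probes was 0.21, beside 0 over all probes.

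Whether the KO difference at 16 months differed from that at 4 months was tested by an interaction term in the same fit. In limma 0 of 11 probes passed, where 11.2% of all probes did, and Nqo1 was the only member with an unadjusted p under 0.05, which 27.9% of all probes had. For Nqo1 the difference between the ages was 2.35 (SE 0.957, limma adjusted p = 0.141, 95% interval 0.22 to 4.47), so its rise at 16 months was not shown to exceed the difference at 4 months. Without WT replicate 1+2 of 16 months, Nqo1 passed at 3.56 (limma adjusted p = 0.0394) and Gclm at 1.91 (limma adjusted p = 0.0216). Over the 4 groups the level of Nqo1 averaged 4.04 ± 0.49 in KO (SD, n = 4) and 0.03 ± 1.72 in WT (SD, n = 2) at 16 months, and -2.27 ± 0.57 in KO (SD, n = 3) and -3.94 ± 0.94 in WT (SD, n = 4) at 4 months. The replicates of KO and WT at 4 months overlapped, and every replicate of 16 months was above every replicate of 4 months. Slc40a1 averaged 2.36 ± 1.90 in KO and 4.67 ± 0.56 in WT at 16 months, and 6.24 ± 0.46 in KO and 5.95 ± 0.07 in WT at 4 months, so that every replicate of 16 months was below every replicate of 4 months. For Slc40a1 the difference between the ages was -2.59 (SE 1.23, limma adjusted p = 0.202, 95% interval -5.32 to 0.14).

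Other genes of the same pathways also differed in KO microglia of 16 months, and the lists of glutathione and thioredoxin and of other antioxidant genes held rises and no falls. Counting for each gene its probe of highest mean, 20.5% of 17816 named genes were higher and 14% were lower in KO at 16 months, with a median of 0.20. Over the 22578 probes above background on all 15 arrays, named or not, the median was 0.53, and 6624 were higher and 3240 lower. The lists were chosen with earlier results of these data known, so their counts do not test the pathways. Of 21 other genes of glutathione and thioredoxin, 12 rose and 0 fell (1 had a negative difference at an unadjusted p under 0.05), with a median of 1.67. Of 19 other antioxidant and NADPH genes, 10 rose and 0 fell (1 likewise), with a median of 1.50. Of 24 genes of iron uptake, release and regulation, 8 rose and 2 fell, with a median of 0.43. Of 9 regulators of NRF2, 0 rose (0 also at an unadjusted p under 0.05) and 4 fell, with a median of -1.63. The lists do not include the members, whose own count was 1 of 10.

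**Figure D4:**
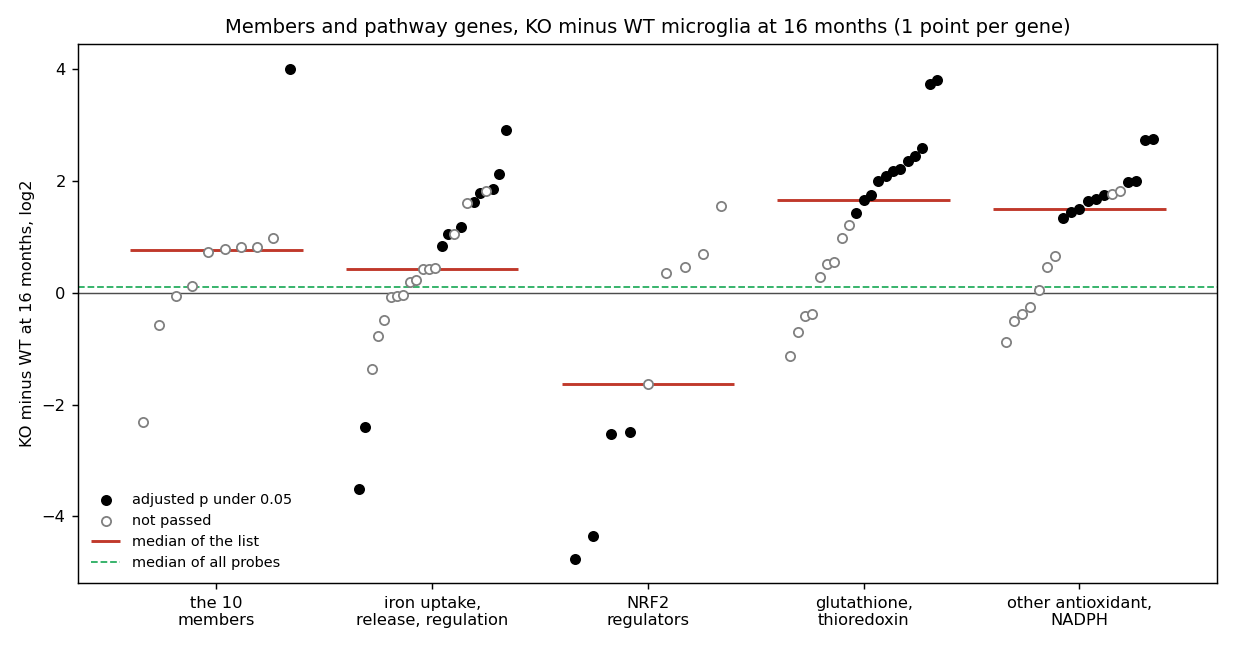
Difference of each gene of the members and of 4 surrounding lists, KO minus WT at 16 months on the log2 scale, 1 point per gene, filled where the adjusted p was under 0.05. Red lines are list medians, which lie at 0.76 for the members, 0.43 for iron genes, -1.63 for NRF2 regulators, 1.67 for glutathione and thioredoxin and 1.50 for other antioxidant and NADPH genes; the dashed line is the median of all probes, 0.10.

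Among the glutathione and thioredoxin genes, the largest rises on the brightest probe of each gene were those of Gsta4, Mgst1 and Ggt1. Gsta4, a glutathione transferase that clears the lipid peroxidation product hydroxynonenal, had a level of 5.11 ± 0.46 in KO (SD, n = 4) and 1.31 ± 1.28 in WT (SD, n = 2), a rise of 3.80 (SE 0.435, limma adjusted p = 0.000261). Mgst1, a membrane-bound glutathione transferase, rose by 3.73 (SE 0.679, limma adjusted p = 0.00279), and by 3.85 on its other probe. Ggt1, which starts the breakdown of extracellular glutathione, rose by 2.58 (SE 0.535, limma adjusted p = 0.00528) and was above background on 4 of 4 KO and 2 of 4 WT arrays. The remaining 9 that rose, named after their values were seen, were the peroxiredoxins Prdx1, Prdx2, Prdx3, Prdx5 and Prdx6, the lipid peroxidase Gpx4, glutathione synthetase (Gss), Gstp1 and glutaredoxin (Glrx), with rises between 1.43 and 2.45. On its other probes Prdx6 rose by 3.26 and 2.65 (limma adjusted p = 0.000416 and 0.00088) and had a difference of 1.98 (limma adjusted p = 0.0721).

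Idh1, Cat and Ephx1 led the other antioxidant and NADPH genes. Idh1, which makes NADPH in the cytosol, had a level of 2.73 ± 1.21 in KO (SD, n = 4) and -0.02 ± 0.08 in WT (SD, n = 2), a rise of 2.75 (SE 0.691, limma adjusted p = 0.0133). Catalase (Cat), which breaks down hydrogen peroxide, rose by 2.73 (SE 0.444, limma adjusted p = 0.00154), and by 2.57 on its other probe. Ephx1, an epoxide hydrolase, rose by 1.99 (SE 0.339, limma adjusted p = 0.00195), and by 3.09 on its other probe. Idh1 did not pass without WT replicate 1+2 (adjusted p = 0.0651) or without WT replicate 3+4 (adjusted p = 0.0681), nor with replicate sets as a block (adjusted p = 0.0553).

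Among the iron genes, Blvra and Aco1 rose and Slc25a37 and Slc11a1 fell. Biliverdin reductase A (Blvra), which acts on the biliverdin that Hmox1 makes, had a level of 5.74 ± 0.39 in KO (SD, n = 4) and 3.61 ± 0.40 in WT (SD, n = 2), a rise of 2.13 (SE 0.261, limma adjusted p = 0.000362), and of 2.50 on its other probe. Aco1, the aconitase that serves as iron regulatory protein 1 when iron is low, rose by 1.86 (SE 0.37, limma adjusted p = 0.0043). Mitoferrin 1 (Slc25a37), an iron importer of mitochondria, fell by 3.51 (SE 0.368, limma adjusted p = 0.000191), while its other probe had a difference of -0.55 (SE 0.714, limma adjusted p = 0.621). Slc11a1, a metal transporter of phagosomes, fell by 2.41 (SE 0.59, limma adjusted p = 0.0119).

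The other iron sensor and the transferrin receptor did not pass. Ireb2, iron regulatory protein 2, had a difference of -0.48 (SE 1.11, limma adjusted p = 0.814), and 3 of 4 KO arrays were above background. Tfrc, the transferrin receptor, had a difference of 1.06 (SE 0.983, limma adjusted p = 0.471) on its brightest probe and of -0.68 (SE 1.04, limma adjusted p = 0.688) on another.

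The NRF2 regulators that fell were repressors or small MAF partners, and NRF2 and KEAP1 themselves did not pass. Nfe2l2 had a level of 5.77 ± 0.47 in KO (SD, n = 4) and 5.31 ± 0.41 in WT (SD, n = 2), a difference of 0.46 (SE 0.361, limma adjusted p = 0.388) that turned to -0.21 with quantile normalization. Keap1 had a difference of 0.70 (SE 0.392, limma adjusted p = 0.213). Bach1, the repressor at antioxidant response elements, had a level of 1.28 ± 1.15 in KO and 3.81 ± 0.92 in WT, a fall of 2.53 (SE 0.617, limma adjusted p = 0.0117). Maff, a small MAF protein, fell by 4.35 (SE 1.11, limma adjusted p = 0.0146) and was above background on 3 of 4 KO arrays. Bach2, a relative of Bach1, fell by 4.76 (SE 1.43, limma adjusted p = 0.0293) on 1 probe and had a difference of -0.01 (SE 0.747, limma adjusted p = 1) on the other. The fourth fall, named after its values were seen, was that of Mafg, at 2.48 (SE 0.291, limma adjusted p = 0.000295), while its other probes had differences of -1.75 and -1.62 (limma adjusted p = 0.00545 and 0.144). Mafk, also a small MAF gene and named after its values were seen, had a difference of -1.63 and did not pass (limma adjusted p = 0.123).

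Some of these falls and rises depended on the samples in the model. With only 16-month arrays in the model, 2051 of all 45637 probes were higher and 2024 lower, against 7936 and 5857 in the main fit. In that model 4 of 21 glutathione and thioredoxin genes, 3 of 19 other antioxidant genes and 1 of 24 iron genes rose. Of 9 regulators 1 fell. Bach1 and Maff did not pass there (limma adjusted p = 0.144 and 0.154), nor without WT replicate 3+4 (limma adjusted p = 0.113 and 0.11), and the same held for Bach2, Slc11a1, Ggt1 and Idh1 under both. Mgst1, Aco1 and Ephx1 did not pass with the 16-month arrays only (limma adjusted p = 0.0519, 0.0748 and 0.0617). The calls of Gsta4, Blvra, Slc25a37 and Cat passed in all 14 alternatives run for each. The microglia and choroid plexus marker sums given above moved between the same replicates, and their part in these counts was not tested.

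At 4 months 0 genes of the 4 lists passed in limma, where 0.0168% of named genes were higher and 0.0112% lower. At an unadjusted p under 0.05 there were 3 of 21 glutathione and thioredoxin genes, 1 of 24 iron genes, 1 of 19 other antioxidant genes and 0 of 9 regulators, all with higher values in KO, where 6.06% of all probes had such a p. The interaction between genotype and age passed with a positive sign for 7 glutathione and thioredoxin genes, 5 other antioxidant genes and 3 iron genes, where 7.21% of named genes did. It passed with a negative sign for 2 regulators and 1 iron gene, where 6.29% of named genes did. With quantile normalization the positive counts were 3, 1 and 2, and over 20 alternatives they ran between 2 and 7, 0 and 6 (0 without KO replicate 3 of 4 months), and 0 and 3. Gsta4 had an interaction of 2.37 (SE 0.58, limma adjusted p = 0.0278), Blvra of 1.85 (SE 0.348, limma adjusted p = 0.00983) and Slc25a37 of -3.65 (SE 0.49, limma adjusted p = 0.00268). In this fit, on these probes, those genes thus differed more between KO and WT at 16 months than at 4 months. Their interactions were not followed singly over the alternatives. The other probe of Slc25a37 had a difference of -0.55 at 16 months (limma adjusted p = 0.621). Further limits are that each age lay on its own slide, that the signals of the ages were corrected differently and that 16 months had 2 WT replicates. The part of the marker differences at 16 months was not tested.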

How the data were processed

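RNA of sorted microglia was measured on 15 1-color arrays (Agilent design 028005). The deposited values are spot intensities, and the processed signal is the intensity after background subtraction by Feature Extraction 10.7.3.1, per the file headers. R 2.15.3 is named as well in the submitters' processing notes. On the 4-month arrays the deposited signal was also divided by a fitted slide surface and on the 16-month arrays it was not, per the file headers, so comparisons within an age use 1 kind of signal.

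Repeat spots were averaged without outlier flags, each array was divided by its 75th percentile, and signals were set to a floor of 0.0325 times it (-4.94 on the log2 scale). Of 55681 probes, 26582 were named through RefSeq accessions, and the 45637 that exceeded background clearly on 3 or more arrays were tested. Matched WT arrays of 16 months differed by a scaled median absolute deviation of 0.0794 to 0.109, repeat spots by an SD of 0.197 to 0.288 and other arrays of a group by 0.391 to 1.45, so the fit held 13 replicates. Of the 13, 4 KO and 2 WT were of 16 months and 3 KO and 4 WT of 4 months. The number of arrays limits the precision.

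A linear model over the 4 groups was fitted with limma 3.58.1 (R 4.3.3, statmod 1.5.0, version 1.17.8 of data.table), with Benjamini-Hochberg adjustment over all probes tested, two-sided, and a threshold of 0.05. The script was tested on simulated data. Members, gene lists and marker lists were chosen with earlier results of these data known. Members are always named, and of each list up to 3 genes per direction with the largest difference among those that passed, with Nfe2l2, Keap1, Bach1, Ireb2, Aco1, Tfrc and Grn always. A gene that this rule names among the iron genes is not reported here. Alternatives changed the normalization, the background correction (normexp with offset 50 on median spot signals), the dim-probe filter, the probe per gene, the replicate block and the samples. The array files are annotated to an older mouse build than the RefSeq annotation, so gene coordinates are not given and promoter windows carry the build of RefSeq. The bead arrays of brain regions carry probe IDs for which no gene names were at hand, and they were not analysed here. Border macrophage, red blood cell, choroid plexus and microglia marker lists are reported, and other marker lists are given with the closing observations.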

Additional observations from a re-analysis of the deposited data

Results flagged for a closer look

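Of 22 groups of 4 replicates of a probe, 3 held a replicate that stood far from the others by Dixon's criterion at 95%, where chance flags about 1 in 20 groups. Ftl1 in KO replicate 2 of 16 months had a level of 8.72, above the other KO replicates at 7.86, 7.96 and 7.85. Slc7a11 had a level of -1.66 in KO replicate 4 of 16 months, while the other KO replicates were at or near the floor of -4.94. Slc7a11 had a level of -4.33 in WT replicate 1 of 4 months, where the other WT replicates were at that floor. This gap is thus between a value close to background and values that were not above background. With the other values all set to the floor, the criterion flags any value off it. The rate by chance therefore does not apply to that group, and the KO group of Slc7a11 also holds values set to the floor.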

How the results depend on the processing

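The comparison at 16 months rests on 2 WT replicates, probes near background such as that of Slc7a11 have little signal to compare, and the array files of each age were corrected differently. The brain alternatives (all 6 brain comparisons) were not run, since the bead probes had no gene names here. With one choice changed at a time, 718 recomputed values of single probes kept direction and side of the threshold, 21 lost a call, 9 gained one and 30 changed sign.

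Over all probes at 16 months, 13793 passed, and 4075 with the 16-month arrays alone. Of those that passed, 57.5% were higher, against 44.7% with the 75th percentile taken over probes above background on all arrays, where the same share for the interaction was 42.3% instead of 53.8%. With normexp the median of all probes was 0.48 at 16 months instead of 0.10, and 0.43 for the interaction instead of 0.19. At 4 months 10 passed, against 1 with normexp, 25 without a filter, 26 with the 4-month arrays alone, and 0 (914 at an unadjusted p under 0.05 in limma) among probes above background on all 15 arrays. Leaving out 1 replicate of 4 months gave 9 to 32, and of 16 months 2 to 5 without a KO replicate and 126 without either WT replicate. The interaction had 5122, and 2916 to 6853 with 1 replicate left out. Of the members, the 1 higher probe at 16 months became 0 among probes above background on all 15 arrays, a filter that dropped Nqo1, and 1 to 2 with 1 replicate left out. The 0 lower probes became 1, Slc40a1, with quantile normalization, normexp and that filter, and 0 to 1 with 1 replicate left out. For the interaction 0 higher became 2 without WT replicate 1+2 of 16 months.

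Signs turned for differences that had not passed. At 16 months Gclm was -0.025 with quantile normalization and -0.19 with the other percentile, and Nfe2l2 was -0.21 with quantile normalization. At 4 months Slc7a11 was 0.61 with quantile normalization and 0.54 with normexp. The interaction of Srxn1 was -0.069 and -0.11 under the 2 scalings. With 1 replicate other than WT 1+2 or 3+4 of 16 months left out, the 16-month difference ran between -0.29 and 0.18 for Hmox1 (A_51_P263965) and -1.04 and 0.51 for Ireb2, and the 4-month difference between -0.11 and 0.10 for Slc7a11 and -0.12 and 0.61 for Txnrd1. The interaction then ran between -0.36 and 0.042 for Gclc and -0.16 and 0.66 for Srxn1. Without WT replicate 3+4 of 16 months, the difference was 0.35 for Hmox1 (A_51_P263965), -1.12 for Gclm, -0.19 for Srxn1 and 0.68 for Ireb2, and the interaction was 0.28 for Gclc, -0.56 for Gclm and -0.88 for Srxn1. Without 1+2, the difference was -0.45 for Hmox1 (A_51_P263965) and -1.64 for Ireb2, and the interaction was -0.57 for Gclc, 1.13 for Srxn1 and -0.007 for Hmox1 (A_55_P2029687). The cause was not tested.

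Deviations of same-numbered arrays correlated at -0.0409 to -0.0271 in 3 pairs at 4 months, so the numbers did not pair those samples. At 16 months they correlated at 0.088 to 0.137 in 4 pairs. All KO and WT arrays of 16 months correlated at 0.0583 to 0.137 within the sets 1+2 and 3+4, and at -0.149 to -0.0679 across them. Because the WT arrays match within a set, their deviations in the other set have the opposite sign. The labels do not say what a set stands for. A fit with the replicate number as a block (at 16 months, the sets 1+2 and 3+4) called 10211 probes at 16 months, 1 at 4 months and 2333 for the interaction, ended the call of Idh1, and gave -0.02 for Srxn1 in the interaction.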

Other observations

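The other marker lists, with the sum of each in multiples of the 75th percentile, were as follows at 16 months. Astrocyte markers summed to 32.2 to 71.5 in KO and 27.3 to 29.2 in WT, where 2 of 5 rose and 1 fell. Oligodendrocyte markers summed to 10.3 to 12.4 in KO and 12.8 to 20.2 in WT, where 1 of 5 rose and 3 fell. Neuron markers summed to 5.05 to 10.3 in KO and 5.64 to 8.23 in WT, where 1 of 4 rose and 2 fell. Endothelium markers summed to 2.6 to 17 in KO and 12.7 to 15.3 in WT, where 0 of 5 rose and 2 fell. Kdr, counted as a fall, had a difference of 1.71 on its other probe (limma adjusted p = 0.0519). Neutrophil markers summed to 0.399 to 130 in KO and 63.8 to 273 in WT, where 1 of 5 rose, and monocyte markers to 0.289 to 1.35 in KO and 0.745 to 3.94 in WT, where 1 of 3 tested rose. Within KO, the neutrophil sum was 130 and 126 in replicates 1 and 3 and 0.565 and 0.399 in replicates 2 and 4. On its second probe Hmox1 was also higher in KO replicates 1 and 3 (-0.72 and -0.77) than in 2 and 4 (-1.91 and -1.89), while on its first probe replicates 2 and 3 were the higher (2.34 and 2.57).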
